A study of Mus musculus with 6 samples.

Results

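The genes described here belong to the protein families of nasal glands and mucus: the BPIF proteins, odorant-binding proteins, lipocalins, major urinary proteins, secretoglobins and mucins. They were taken as every row of the count table whose symbol begins Bpifa, Bpifb, Obp, Lcn, Mup, Scgb or Muc followed by the number and letters of a family member, which gave 101 of 53686 genes. Hemizygous 5x21-OR1A1 mice, carriers of an odorant receptor transgene, gave 3 libraries and wild-type mice gave 3, all of strain C57BL/6J and all from dissected mouse olfactory epithelium (MOE). No source used here gives the animals' age, the promoter of the transgene or how many animals stand behind a library, and a p-value here therefore covers only the variation among these 6 libraries. The study addressed how olfactory neurons choose their odorant receptor, and the comparison here is of the gland products in the same tissue.

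Bowman's glands under the olfactory epithelium and the larger glands of the nasal septum and lateral wall secrete the mucus through which odorants reach the receptors. Lipocalins, which include the odorant-binding and major urinary proteins, are small barrels that hold hydrophobic molecules in a central pocket. BPIF proteins are lipid-binding relatives of the bactericidal permeability-increasing protein, secretoglobins are small paired proteins of mucosal surfaces, and mucins form the mucus gel or coat the cell surface. In bulk tissue, fewer gland cells and less RNA per gland cell cannot be told apart.

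The members split by family into 5 Bpifa, 8 Bpifb, 4 Obp, 10 Lcn, 21 Mup, 40 Scgb and 13 Muc genes. Counts were absent in every library for 38 of them, 16 of these Mup and 18 Scgb genes, which allows up to 0.109 CPM (counts-per-million of the library total) in the library of lowest depth, counting error only. A total of 36 members held enough counts to be tested. Many members are near-identical copies: 39 had over 10% of the 100-base windows of their longest transcript, the read length used here, in common with a transcript of another gene. That was so for 15 of the 16 Mup genes at 0 and for 12 of the 18 Scgb genes at 0, so reads of these genes may have been dropped or shared in counting and their values are uncertain.

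Library totals ran from 27506217 to 35804712 counts. 5x21-OR1A1 libraries 2 and 3 and wild-type library 1 were female by Xist and Ddx3y, and the other libraries were male. 5x21-OR1A1 library 2 stood apart in the ribosomal RNA row CT010467.1, which took 6.01% of its counts, against 0.0447 to 0.550% in the other 5 libraries. Omp, the marker of mature olfactory neurons, averaged 6787 CPM in 5x21-OR1A1 and 11518 CPM in wild-type libraries, a difference that passed the threshold over all genes (log2 fold change -0.76, edgeR adjusted p = 0.0305). Aqp5, a water channel of gland cells, was at 546.8 to 623.7 CPM in the 5x21-OR1A1 libraries and 619.7 to 749.0 CPM in wild-type libraries. Its log2 fold change of -0.21 did not pass (edgeR adjusted p = 0.404). The 28 tested secretory genes described below, Aqp5 among them, had a median of 0.17, so this 1 gene does not stand for gland content.

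Together the members took 14.3, 10.6 and 17.1% of all counts in the 5x21-OR1A1 libraries and 12.2, 11.3 and 14.5% in the wild-type libraries. The groups overlapped, and the lowest share was in the library with the high ribosomal RNA row. Obp genes alone took 7.54% ± 2.29 in 5x21-OR1A1 and 6.99% ± 1.13 in wild-type libraries (SD, n = 3 each). The Bpifa share was 2.22% ± 0.221 in 5x21-OR1A1 and 2.09% ± 0.202 in wild-type libraries. The Lcn share was 1.81% ± 0.407 in 5x21-OR1A1 and 1.54% ± 0.233 in wild-type libraries, and the Muc share 0.0398% ± 0.00345 in 5x21-OR1A1 and 0.0484% ± 0.0165 in wild-type libraries. The steadiest family shares were those of Bpifa and Scgb, whose highest library was 1.24 and 1.25 times the lowest, and the most variable was Mup, at 4.29 times. Bpifa1 held almost all Bpifa counts and Scgb1c1 most Scgb counts. The other tested Scgb genes each spanned 3.16-fold or more between libraries.

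**Figure D1:**
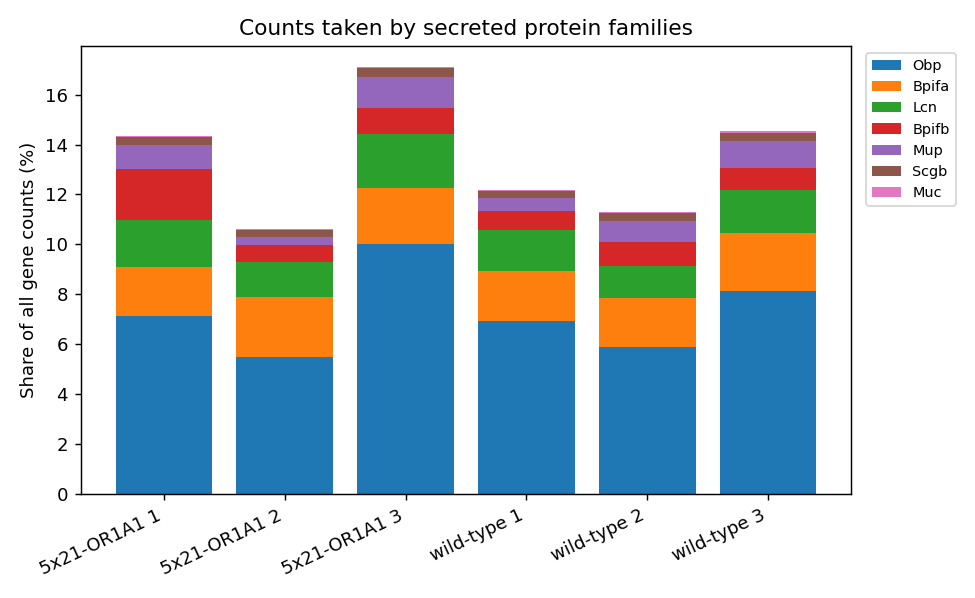
Share of all gene counts (percent, stacked bars from 0) taken by each secreted protein family in the 3 libraries of 5x21-OR1A1 mice and the 3 of wild-type mice. Obp genes form the tallest block in every bar, and whole bars run from 10.6 to 17.1%.

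No tested member passed the threshold for a genotype difference, an adjusted p under 0.05 in edgeR's quasi-likelihood test with Benjamini-Hochberg adjustment over all 19267 genes. Among all genes tested 2.71% passed, 0.519% higher and 2.20% lower in 5x21-OR1A1 tissue. At an unadjusted p under 0.05 the same test listed 7 of the 36 members, or 19.4%, against 17.1% of all genes. Of these, 5 were higher in 5x21-OR1A1 tissue (13.9%, against 7.48% of all genes) and 2 lower (5.56%, against 9.61%). The log2 fold change was past 1 in size in 5 members (13.9%), against 3.79% of all genes. DESeq2 called 5 of 41 members (12.2%), against 6.03% of all genes it tested, and limma-voom 0 of 36, against 2.61%. The median log2 fold change was 0.15 over the 36 members and 0.02 over all genes tested, with 24 members above and 12 below 0. In 2 members every 5x21-OR1A1 library was above every wild-type library, or 5.56%, against 11.4% of all genes, and in 0 members every 5x21-OR1A1 library was below, against 12.5%.

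The members varied widely between libraries, within as well as between genotypes. The biological coefficient of variation, edgeR's estimate of the relative spread between libraries beyond counting error, had a median of 0.303 over the tested members and 0.140 over all tested genes. All 36 tested members lay above the median of all tested genes, and 18 lay among the 10% of tested genes with the highest values. Among genes with a mean of at least 1 CPM, 4 of 33 members differed by 20-fold or more between their highest and lowest library, against 0.596% of all 16766 such genes. These were Bpifb9b, Bpifb9a, Bpifb5 and Muc5ac. Wild-type library 2 was the lowest of the 6 for 16 members, or 44.4%, against 24.6% of all genes at 1 CPM or more. 5x21-OR1A1 library 2 was the lowest for 9 members, or 25%, against 12.1% of those genes. The highest were 5x21-OR1A1 libraries 1 and 3 for 11 and 10 members, or 30.6 and 27.8%, against 12.9 and 13.4% of those genes.

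**Figure D2:**
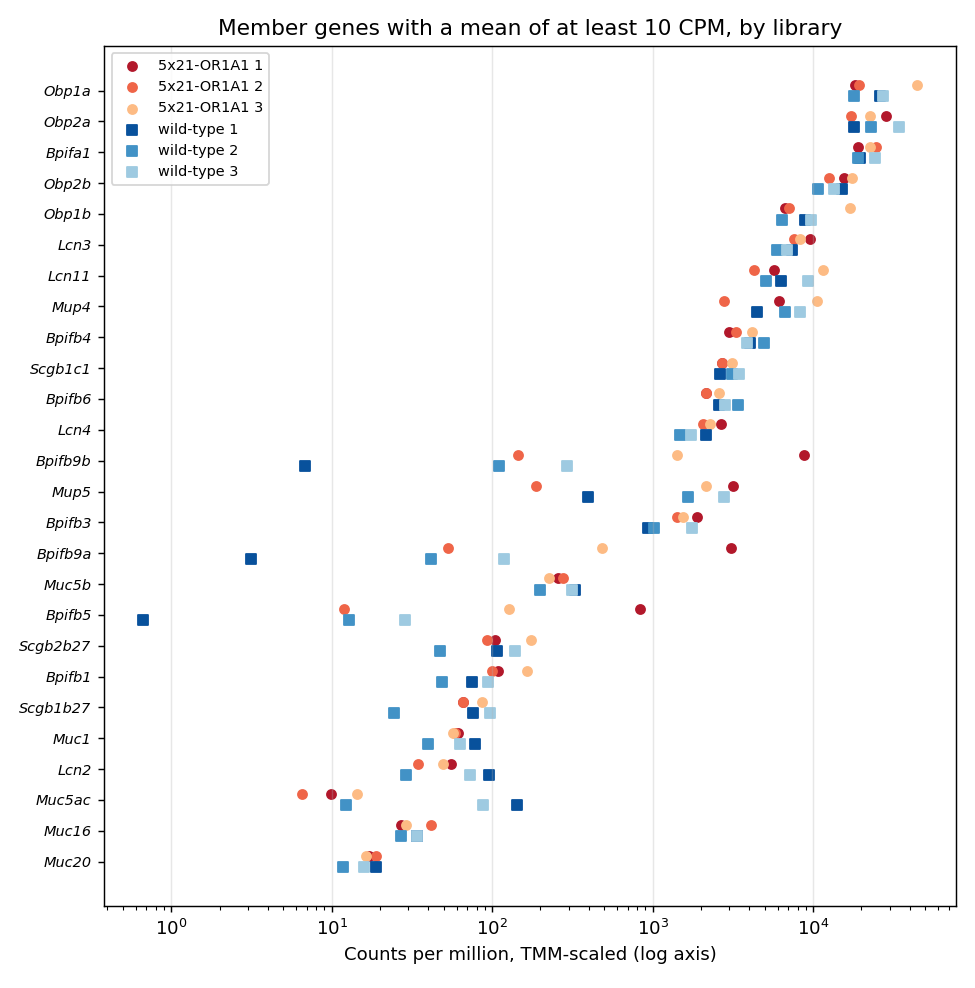
Level of the 26 members with a mean of at least 10 CPM (CPM scaled by TMM, log axis), with circles for 5x21-OR1A1 and squares for wild-type libraries, 1 point per library. Most rows are tight clusters of mixed circles and squares, and the rows of Bpifb9b, Bpifb9a, Bpifb5, Mup5 and Muc5ac are spread wide.

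The largest spread was in a run of neighbouring genes at the distal end of the Bpif cluster on chromosome 2 of GRCm38: Bpifb5 at 154223742 to 154240902, Bpifb9a at 154257854 to 154271245 and Bpifb9b at 154307227 to 154320646, all on the plus strand. Bpifb9 proteins are known as vomeromodulin, described in rat as a secreted protein of nasal and vomeronasal glands. Bases just upstream of and at the start of each gene (RefSeq, GRCm38.p6, plus strand) are shown because these genes moved together, with the TATA box letters TATAAA in capitals. The windows are chr2:154223492-154223791 for Bpifb5, chr2:154257629-154257928 for Bpifb9a and chr2:154306994-154307293 for Bpifb9b.
Bpifb5: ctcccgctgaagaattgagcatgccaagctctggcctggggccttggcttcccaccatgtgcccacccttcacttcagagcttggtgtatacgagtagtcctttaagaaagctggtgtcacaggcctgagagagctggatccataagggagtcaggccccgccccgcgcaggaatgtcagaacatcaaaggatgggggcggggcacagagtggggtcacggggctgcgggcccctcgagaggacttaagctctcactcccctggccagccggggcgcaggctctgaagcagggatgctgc
Bpifb9a: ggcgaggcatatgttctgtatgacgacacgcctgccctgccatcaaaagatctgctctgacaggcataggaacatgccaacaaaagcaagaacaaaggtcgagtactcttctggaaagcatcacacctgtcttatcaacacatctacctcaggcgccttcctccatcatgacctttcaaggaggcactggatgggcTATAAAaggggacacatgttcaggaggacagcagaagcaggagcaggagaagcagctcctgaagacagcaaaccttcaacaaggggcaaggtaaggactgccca
Bpifb9b: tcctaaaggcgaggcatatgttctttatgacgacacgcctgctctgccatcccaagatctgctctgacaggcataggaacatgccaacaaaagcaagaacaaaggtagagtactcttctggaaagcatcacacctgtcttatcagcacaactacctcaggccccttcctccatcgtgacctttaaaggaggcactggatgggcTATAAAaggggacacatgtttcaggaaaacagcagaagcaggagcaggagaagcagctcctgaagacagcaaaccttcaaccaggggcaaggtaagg
The Bpifb9a and Bpifb9b windows were identical at 279 of 292 aligned bases (95.5%), and both hold TATAAA, 54 and 47 bases before the RefSeq start. For both genes the RefSeq start lies downstream of the gene start given above, so the motif is nearer to the latter. The Bpifb5 window holds none on either strand, and TATAAA on either strand is in 13.6% of 32851 RefSeq promoter windows of this length and in 35 of the 79 members that have such a window. The transcripts of Bpifb9a and Bpifb9b shared 53.9 and 53.8% of their 100-base windows, so how reads were divided between this pair is uncertain, while Bpifb5 shared 0.

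Bpifb9b was at 8805, 144 and 1421 CPM in the 5x21-OR1A1 libraries and at 6.86, 110 and 292 CPM in wild-type libraries. Bpifb9a was at 3092, 53.2 and 481 CPM in the 5x21-OR1A1 libraries and 3.14, 41.3 and 118 CPM in wild-type libraries, and Bpifb5 at 839, 11.9 and 127 CPM in the 5x21-OR1A1 and 0.667, 12.9 and 28.7 CPM in wild-type libraries. The 3 genes shared their extremes: 5x21-OR1A1 library 1 was far above all others, library 3 came next, wild-type library 1 was lowest by far, and 5x21-OR1A1 library 2 lay within the wild-type range. Bpifb9b spanned 1284-fold between libraries, with 61.1-fold inside the 5x21-OR1A1 group and 42.5-fold inside the wild-type group. The log2 fold changes of 4.67 (SE 1.62) for Bpifb9b, 4.48 (SE 1.58) for Bpifb9a and 4.54 (SE 1.54) for Bpifb5 did not pass (edgeR adjusted p = 0.197, 0.200 and 0.190). Without 5x21-OR1A1 library 1 they were 2.53, 2.31 and 2.31 (edgeR adjusted p = 0.475, 0.494 and 0.479). Among females Bpifb9b was at 144 and 1421 CPM in 5x21-OR1A1 libraries and 6.86 CPM in the wild-type library. Among males it was at 8805 CPM in the 5x21-OR1A1 library and 110 and 292 CPM in wild-type libraries. Each sex thus has a lone library of 1 genotype, wild-type library 1 or 5x21-OR1A1 library 1, and these are the extremes named above. The order within each sex rests on those lone libraries and is no separate support for a genotype difference. With sex as a covariate the log2 fold changes were 6.12, 5.79 and 5.71 and passed (edgeR adjusted p = 0.0418, 0.0418 and 0.0440). That fit called 3 of 36 members (8.33%), against 1.5% of all genes.

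The 3 genes kept similar proportions to each other while their levels spanned 983-fold to 1284-fold. Bpifb5 counts were 9.53, 8.23 and 8.94% of Bpifb9b counts in the 5x21-OR1A1 libraries and 9.72, 11.8 and 9.85% in the wild-type libraries. Bpifb9a counts were 35.1, 36.9 and 33.9% of Bpifb9b counts in the 5x21-OR1A1 libraries and 45.8, 37.7 and 40.5% in the wild-type libraries. Bpifb1, the next gene of the cluster on the proximal side, did not share that pattern: its counts ran from 1.24 to 1092% of those of Bpifb9b. A pair of genes outside the families was highest in the same libraries and was chosen after its values were seen. Odam, a secreted protein of ameloblasts and glands at 87885029 to 87894174 on chromosome 5, was at 74.2, 0.961 and 15.8 CPM in the 5x21-OR1A1 libraries and 0.508, 0.934 and 2.97 CPM in wild-type libraries. Cabs1, at 87979439 to 87981544 on chromosome 5, was at 122, 1.58 and 23.5 CPM in the 5x21-OR1A1 libraries and 0.413, 1.51 and 4.88 CPM in wild-type libraries. Cabs1 overlaps Gm28434, so its reads may be shared. For both, 5x21-OR1A1 library 1 was highest and wild-type library 1 lowest, and neither passed (edgeR adjusted p = 0.145 and 0.152).

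**Figure D3:**
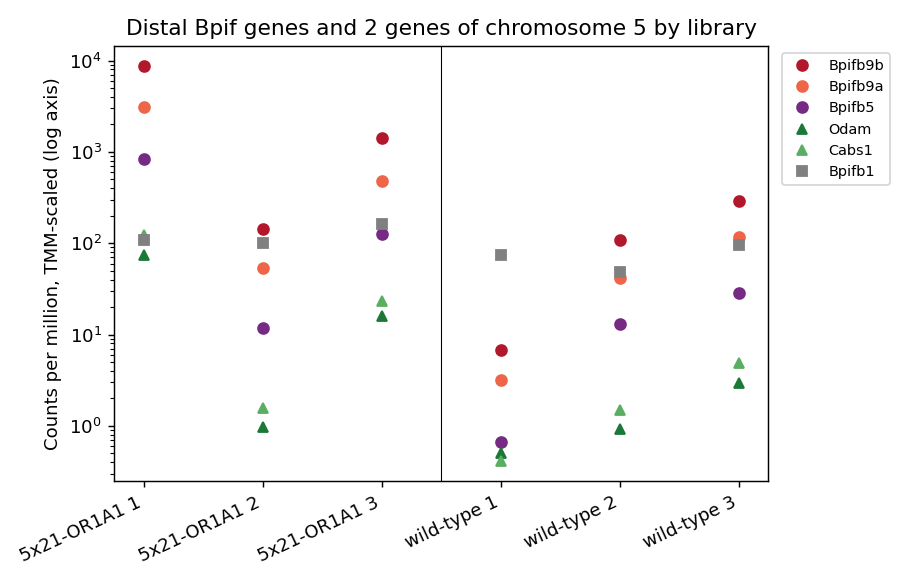
Level of Bpifb9b, Bpifb9a and Bpifb5 (circles), Odam and Cabs1 (triangles) and Bpifb1 (squares) in each library, in CPM on a log axis, 5x21-OR1A1 left of the line and wild-type right of it. The circles and triangles are highest in 5x21-OR1A1 library 1 and lowest in wild-type library 1, while Bpifb1 stays between 48.6 and 164 CPM.

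The other BPIF genes were steadier. Bpifa1, also called SPLUNC1, an antimicrobial and surface-active protein of the airways, was at 19134, 24693 and 22715 CPM in the 5x21-OR1A1 libraries and 19712, 19158 and 24267 CPM in wild-type libraries. Its groups overlapped fully (log2 fold change 0.08, SE 0.16, edgeR adjusted p = 0.852). Bpifb1, or LPLUNC1, a secreted protein of mucous cells, was at 109, 99.8 and 164 CPM in the 5x21-OR1A1 libraries and 74.9, 48.6 and 94.8 CPM in wild-type libraries. Every 5x21-OR1A1 library was above every wild-type library, and the difference of 0.77 on the log2 scale (SE 0.26) did not pass (edgeR adjusted p = 0.189). Bpifb3, Bpifb4 and Bpifb6 lie side by side at the proximal end of the cluster. Bpifb4 averaged 3482 ± 602 CPM in 5x21-OR1A1 and 4290 ± 596 CPM in wild-type libraries, and Bpifb6 2297 ± 257 CPM in 5x21-OR1A1 and 2931 ± 413 CPM in wild-type libraries (SD, n = 3 each). Their log2 fold changes were -0.30 and -0.35 (edgeR adjusted p = 0.404 and 0.272), and the ratio of Bpifb4 to Bpifb6 counts stayed between 1.37 and 1.60 over the 6 libraries. Bpifb3, which lies between them, had a value of 0.39 (SE 0.25, edgeR adjusted p = 0.475). Of the others, Bpifa2, the parotid secretory protein of saliva, and Bpifa6 were near or under 1 CPM, and Bpifa3, Bpifa5 and Bpifb2 had too few counts to test.

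Obp1a and Obp2a, which encode odorant-binding proteins of nasal mucus, were the most abundant members. Per kilobase of exon, Obp1a averaged 35939 CPM in 5x21-OR1A1 and 31450 CPM in wild-type libraries, and Obp2a 30561 CPM in 5x21-OR1A1 and 33724 CPM in wild-type libraries. On the same scale over all 6 libraries the next were Obp2b (19325), Bpifa1 (13989), Obp1b (11653), Lcn3 (11138), Lcn11 (10815), Mup4 (7051) and Scgb1c1 (6505). Obp1a and Obp1b lie on the X chromosome, at 78085505 to 78091374 and 78186777 to 78192292. In total level, Obp1a was at 18162, 19181 and 44275 CPM in the 5x21-OR1A1 libraries and 25965, 18010 and 27446 CPM in wild-type libraries. Obp1b was at 6685, 7029 and 16947 CPM in the 5x21-OR1A1 libraries and 8900, 6424 and 9740 CPM in wild-type libraries. Both were highest in 5x21-OR1A1 library 3 and lowest in wild-type library 2, and the ratio of Obp1a to Obp1b counts moved only between 2.61 and 2.92. Neither passed (log2 fold change 0.19 and 0.29, edgeR adjusted p = 0.831 and 0.740), and without 5x21-OR1A1 library 3 the values were -0.35 and -0.29. Obp1b shared 57.3% of its 100-base windows with Gm14743, another gene of the X chromosome, which was at 468, 2061 and 6968 CPM in the 5x21-OR1A1 libraries and 1814, 262 and 212 CPM in wild-type libraries. The order of libraries thus differed between these genes, and reads may have been shared between them.

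Obp2a and Obp2b lie in a run of lipocalin genes on chromosome 2 with Lcn3 and Lcn11. Obp2a was at 28418, 17170 and 22624 CPM in the 5x21-OR1A1 libraries, against 18067, 22785 and 34419 CPM in wild-type libraries (log2 fold change -0.14, SE 0.27, edgeR adjusted p = 0.837). Obp2b averaged 15194 ± 2508 CPM in 5x21-OR1A1 and 13098 ± 2253 CPM in wild-type libraries (SD, n = 3 each; edgeR adjusted p = 0.608). Unlike the Obp1 pair, this pair did not keep a fixed ratio, which ran from 1.19 in wild-type library 1 to 2.56 in wild-type library 3.

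Lcn3 and Lcn4 encode the vomeronasal secretory proteins, lipocalins of the glands of the vomeronasal organ and septum. Lcn3 was at 9611, 7642 and 8248 CPM in the 5x21-OR1A1 libraries and 7344, 5975 and 6892 CPM in wild-type libraries. The groups did not overlap, by a narrow margin, and the log2 fold change of 0.34 (SE 0.14) did not pass (edgeR adjusted p = 0.281). Lcn4 averaged 2330 ± 303 CPM in 5x21-OR1A1 and 1793 ± 342 CPM in wild-type libraries (SD, n = 3 each), with a log2 fold change of 0.38 (SE 0.17, edgeR adjusted p = 0.302), and the ratio of Lcn3 to Lcn4 stayed between 3.39 and 4.01. The summed level of 4 tested vomeronasal neuron markers was 25.4, 23.3 and 47.1 CPM in the 5x21-OR1A1 libraries and 49.4, 15.9 and 7.02 CPM in wild-type libraries (2 further markers had too few counts to test). It was highest in wild-type library 1 and 5x21-OR1A1 library 3, and Lcn3 in 5x21-OR1A1 libraries 1 and 3; the part of vomeronasal tissue in the Lcn3 level was not tested. Lcn11 was at 5705, 4307 and 11566 CPM in the 5x21-OR1A1 libraries and 6298, 5092 and 9339 CPM in wild-type libraries, highest in 5x21-OR1A1 library 3 like Obp1a. Lcn2, the siderophore-binding lipocalin of neutrophils and stressed epithelium, was at 55.7, 34.3 and 49.4 CPM in the 5x21-OR1A1 libraries and 95.2, 29.2 and 72.8 CPM in wild-type libraries. Its lowest values were in 5x21-OR1A1 library 2 and wild-type library 2, where the summed neutrophil markers were also lowest, at 33.8 and 50.8 CPM against 80.0 to 124 CPM in the other 4 libraries; their part in the Lcn2 level was not tested. The lipocalins Lcn5, Lcn6, Lcn8, Lcn9, Lcn10 and Lcn12, known from the epididymis or male tract in most cases, had too few counts to test.

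Of 21 major urinary protein genes, which in mice are best known as liver-made carriers of urinary pheromones, only Mup4, Mup5 and Mup6 were tested, and 16 had no count. Mup4 was at 6122, 2796 and 10574 CPM in the 5x21-OR1A1 libraries and 4468, 6726 and 8322 CPM in wild-type libraries. Mup5 was at 3183, 187 and 2136 CPM in the 5x21-OR1A1 libraries and 395, 1658 and 2789 CPM in wild-type libraries. Both genes were lowest in 5x21-OR1A1 library 2 and next lowest in wild-type library 1. Both of these libraries were female, and the other female library, 5x21-OR1A1 library 3, was within the male range for Mup5 and the highest for Mup4. Mup5 spanned 7.06-fold among the wild-type libraries alone, and Mup4 1.86-fold. Neither gene differed between genotypes beyond that spread (log2 fold change -0.002 for Mup4 and 0.19 for Mup5, edgeR adjusted p = 0.999 and 0.945).

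Among the secretoglobins, Scgb1c1 was the most abundant, at 2711, 2715 and 3145 CPM in the 5x21-OR1A1 libraries and 2634, 3110 and 3442 CPM in wild-type libraries (log2 fold change -0.10, SE 0.14, edgeR adjusted p = 0.773). Scgb1b27 and Scgb2b27 encode subunits of androgen-binding protein, a paired secretoglobin of saliva and tears. Scgb2b27 was at 104, 92.7 and 174 CPM in the 5x21-OR1A1 libraries and 108, 47.4 and 139 CPM in wild-type libraries, and Scgb1b27 at 65.7, 66.2 and 85.8 CPM in the 5x21-OR1A1 and 75.7, 24.3 and 97.4 CPM in wild-type libraries. Both were lowest in wild-type library 2, and neither passed (edgeR adjusted p = 0.713 and 0.899).

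Androgen-binding protein genes with few counts gave a different picture, singled out after their values were seen. On chromosome 7, 24 such genes lie between Scgb2b3 and Scgb1b20, at 31359038 to 33374559, and 0 of them had enough counts to be tested. The annotation lists Scgb2b6, Scgb2b10, Scgb2b30 and Scgb2b33 inside this run, and Scgb2b1 and Scgb1b21 outside it, as pseudogenes. The summed counts of all 24 genes of the run were 76, 17 and 280 in the 5x21-OR1A1 libraries and 2, 1 and 4 in the wild-type libraries. The 11 genes of the same type on either side summed to 6310, 4660 and 7132 counts in the 5x21-OR1A1 libraries and 5840, 2710 and 6973 counts in the wild-type libraries. The outside sum was almost entirely Scgb2b27 and Scgb1b27. Of the rare genes outside, Scgb2b24 had 68, 18 and 53 counts in the 5x21-OR1A1 libraries and 20, 59 and 53 in the wild-type libraries, and Scgb2b2 had 11, 4 and 25 in the 5x21-OR1A1 and 23, 28 and 59 in the wild-type libraries. Since the interval was drawn with these counts in view, the contrast between inside and outside is a description and was not tested. Scgb2b7 had 27, 3 and 82 counts in the 5x21-OR1A1 libraries and 0, 0 and 2 in the wild-type libraries. Scgb2b12 had 14, 3 and 71 counts in the 5x21-OR1A1 and 0, 0 and 1 in the wild-type libraries, and Scgb2b10 had 19, 4 and 31 in the 5x21-OR1A1 and 0, 1 and 0 in the wild-type libraries. Scgb2b20, with 6, 3 and 52 counts in the 5x21-OR1A1 libraries and 0, 0 and 1 in the wild-type libraries, and Scgb1b20, with 3, 1 and 18 in the 5x21-OR1A1 and 0 in each wild-type library, were likewise highest in 5x21-OR1A1 library 3. Counts in 5x21-OR1A1 library 2 were 1 to 4 for each of these 5 genes, so that library lay only just above the wild-type level. With no filter on low counts, edgeR called Scgb2b7, Scgb2b10, Scgb2b12 and Scgb2b20 (adjusted p = 0.0164, 0.00873, 0.0185 and 0.0389), but not Scgb1b20 (adjusted p = 0.109). The unfiltered fit called 2.34% of all genes and 5 of 63 members (7.94%). DESeq2 called the same 4. In total 14 untested members of all families had at least 10 counts. Of these, 5 (35.7%) were higher and 1, Scgb3a2, (7.14%) lower in every 5x21-OR1A1 library, against 4.33 and 3.11% of all 4569 untested genes with that many counts. The 5 are the genes just named, and each reached 10 counts only through the 5x21-OR1A1 libraries. Their share therefore restates the counts above and is no separate support. Between 21.7 and 41.6% of the 100-base windows of Scgb2b10, Scgb2b12, Scgb2b20 and Scgb1b20 were shared with other genes, so reads may have moved between these rows.

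**Figure D4:**
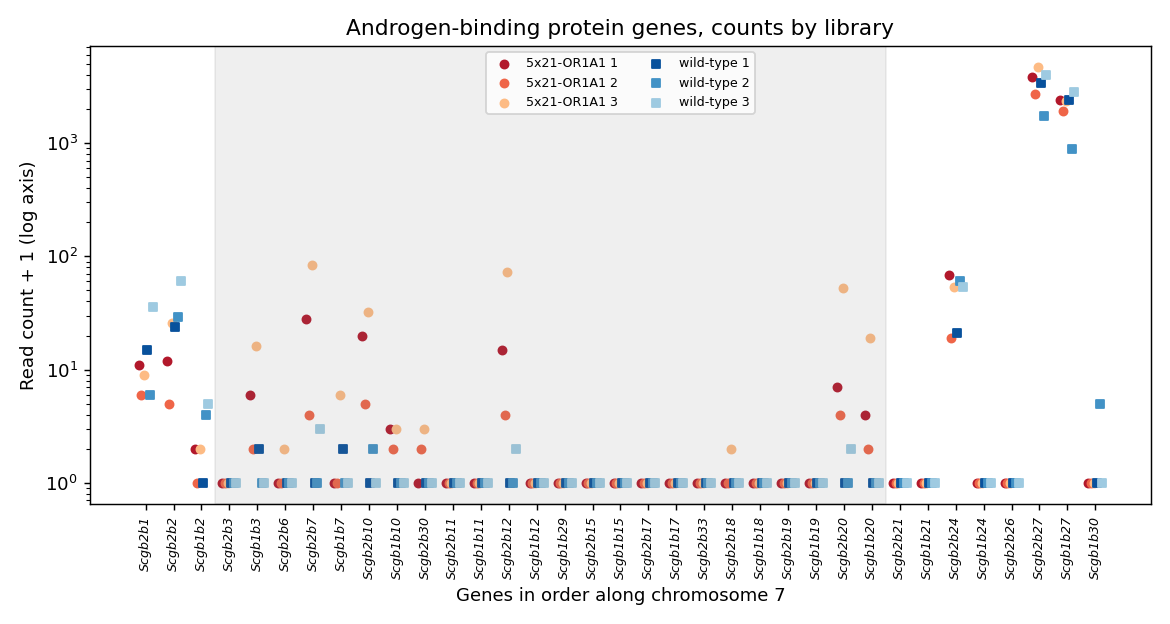
Read counts plus 1 (log axis) of the 35 Scgb1b and Scgb2b genes in order along chromosome 7, circles for 5x21-OR1A1 and squares for wild-type libraries. Inside the shaded run from Scgb2b3 to Scgb1b20 most points above the baseline are circles, and outside it circles and squares are mixed.

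The mucins took the smallest share of counts of the 7 families. Muc5ac, a gel-forming mucin of goblet cells, was at 9.95, 6.48 and 14.4 CPM in the 5x21-OR1A1 libraries and 143, 12.4 and 88.0 CPM in wild-type libraries. Wild-type libraries 1 and 3 were far above the rest, and wild-type library 2 lay within the 5x21-OR1A1 range. The log2 fold change of -2.98 (SE 0.76) did not pass (edgeR adjusted p = 0.0943). It was -3.49 without wild-type library 2, where it passed (edgeR adjusted p = 0.00615), and over the alternatives run the adjusted p ranged from 0.00615 to 0.292. Muc5b, another gel-forming mucin, lies beside it on chromosome 7 and did not follow: it was at 259, 278 and 225 CPM in the 5x21-OR1A1 libraries and 328, 197 and 312 CPM in wild-type libraries (log2 fold change -0.14, SE 0.19, edgeR adjusted p = 0.771). The ratio of Muc5b to Muc5ac counts was 26.0, 42.9 and 15.6 in the 5x21-OR1A1 libraries and 2.29, 16.0 and 3.55 in the wild-type libraries. The membrane mucins Muc1, Muc16 and Muc20 differed by at most 1.97-fold between any libraries, with log2 fold changes of -0.02, 0.04 and 0.16 (edgeR adjusted p = 0.970, 0.935 and 0.675). At lower levels, Muc4 spanned 4.11-fold, Muc13 2.21-fold and Muc15 1.64-fold. Their log2 fold changes were 0.60, 0.52 and 0.31 (edgeR adjusted p = 0.511, 0.320 and 0.380). Muc20 overlaps Muc4 on the other strand and the libraries were not stranded, so both values are uncertain.

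**Figure D5:**
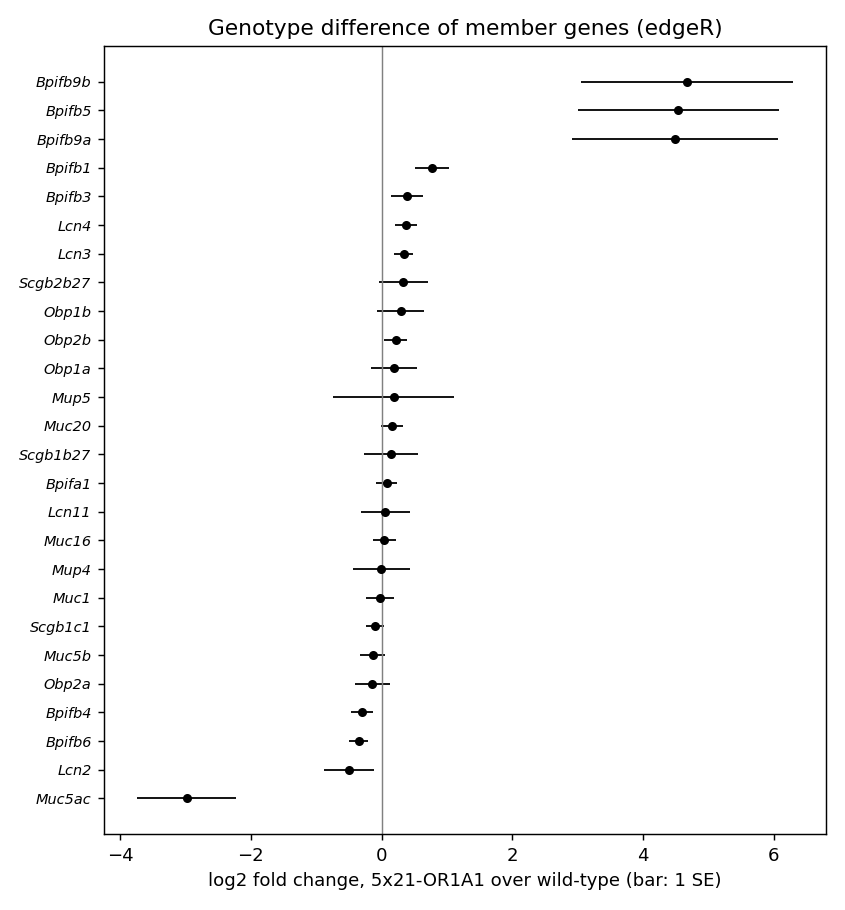
Log2 fold change of the same 26 members, 5x21-OR1A1 over wild-type, with bars of 1 SE from edgeR. The 3 distal Bpif genes stand at 4.48 to 4.67 with wide bars and Muc5ac at -2.98, and the other members lie between -0.50 and 0.77.

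Other secretory genes of glands were taken from a list chosen by role. Of 29 listed genes 28 were tested and 0 passed edgeR's threshold in either direction, with a median log2 fold change of 0.17 against 0.02 over all genes. Ltf, the iron-binding lactoferrin of secretions, averaged 4515 ± 480 CPM in 5x21-OR1A1 and 4220 ± 2027 CPM in wild-type libraries, and Dmbt1, a secreted scavenger receptor, 1962 ± 271 CPM in 5x21-OR1A1 and 1319 ± 311 CPM in wild-type libraries (SD, n = 3 each; edgeR adjusted p = 0.908 and 0.175). Wfdc18 and Wfdc2, small secreted proteins with a whey acidic protein domain, had log2 fold changes of 0.48 and -0.16 (edgeR adjusted p = 0.477 and 0.647). The summed level of the 28 genes was 15298, 11517 and 13382 CPM in the 5x21-OR1A1 libraries and 15388, 8272 and 11128 CPM in wild-type libraries. Like 16 of the members it was lowest in wild-type library 2. The summed markers of sustentacular cells varied little, at 11186 to 12059 CPM in 5x21-OR1A1 and 11713 to 12478 CPM in wild-type libraries. That steady sum hides opposite moves of single markers. In wild-type library 2 Cbr2, at 4177 CPM, had its lowest value, and Sult1c1 and Sec14l3, at 2254 and 2391 CPM, their highest. The secretory sum is carried by its most abundant genes, Ltf, Wfdc18 and Dmbt1, which were each lowest in that library. The listed genes did not all follow: in wild-type library 2 Aqp5, at 634 CPM, was not lowest, and Slc12a2, at 351 CPM, had its highest value. The part of gland content in the members' spread was not tested.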

How the data were processed

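Raw counts per gene symbol of 6 libraries were used as the authors deposited them, with no normalization. Per the labels' protocols, poly-A selected, nonstranded TruSeq libraries were read as single 100 bp reads. The submitters' processing notes list TopHat2 2.1.1, HTSeq 0.9.1 and GRCm38.p5. Which annotation was counted, and what became of reads matching several genes, is not stated there, in the labels or in the files. Positions, exon lengths and transcripts came from GENCODE M21 on GRCm38, where all 101 members were found by symbol, and promoter windows, 250 bases before to 50 after a start, from RefSeq on GRCm38.p6, where 79 members matched.

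The fit used edgeR 4.0.16 under R 4.3.3, with TMM scaling, filterByExpr by group (minimum count 10, total 15) and a quasi-likelihood test of genotype. P-values of 19267 genes were adjusted by Benjamini-Hochberg, with a threshold of 0.05. The standard error is the log2 fold change over the square root of F. CPM values use TMM-scaled totals, and CPM per kilobase divides by the union of exons. The test was checked on simulated data. Described in full were members with a mean of at least 10 CPM, called members, the top member of each family and those at 1 CPM or more with a 20-fold range between libraries. From the list of secretory genes, called genes and the 4 of highest mean CPM were named. Members and lists were chosen with earlier results of these data known. No pair of libraries was close enough to be a repeat deposit of the same library. Alternatives were other scalings, DESeq2 1.42.0, limma-voom (limma 3.58.1), other filters, a threshold of 0.01, a replicate block, a sex covariate and leaving out each library.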

Additional observations from a re-analysis of the deposited data

How the results depend on the processing

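The count of members called, 0 higher and 0 lower, became 4 higher and 1 lower both with DESeq2 and with no filter on low counts, the same 5 genes each time (4 Scgb2b genes and Muc5ac), 3 higher with sex as a covariate (the distal Bpif genes) and 1 higher with the replicate block. Those fits tested 41, 63, 36 and 36 members and called 6.03, 2.34, 1.5 and 1.96% of all genes. Leaving out 1 library gave 0 to 1 higher (Scgb2b10, listed as a pseudogene, without 5x21-OR1A1 library 2) and 0 to 1 lower (Muc5ac, without wild-type library 2). Those fits called 0.886 and 1.59% of all genes, and each called 2.5% of 40 members tested. The secretory list, 0 called, gave 2 with DESeq2 (Dmbt1 and Odam), 1 with no filter (Odam), and 0 to 3 when 1 library was left out. Over all genes DESeq2 called 6.03%, the unfiltered fit 2.34%, and the fit without wild-type library 1, which gave the 3, 3.19%. The cause was not tested. The member median of 0.15 ranged from 0.03 to 0.33 over the alternatives run. Alternatives chosen after seeing the data, near-identical members summed to 1 row and 5x21-OR1A1 libraries 1 and 2 left out, called 0 members; without both of those a lone library is assumed to vary like the other group, and 2 genes were called in all.

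The labels name no pairing of the libraries by replicate number. Deviations from the group means of same-numbered libraries correlated at -0.33, 0.07 and -0.17, and those of differently numbered libraries at -0.20 to 0.34. With 3 libraries per group these values depend on each other and cannot exclude a pairing. With the replicate block 377 genes were called in all, against 523, and Bpifb1 was called (0.79, edgeR adjusted p = 0.0336; over all alternatives 0.0336 to 0.467). Over the alternatives the adjusted p of Bpifb9b ranged from 0.0418 to 0.497.

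Members not called in the reported fit changed sign as follows. Mup4 was 0.0141 with upper-quartile scaling, 0.0031 with the strict filter (1 CPM in 3 libraries) and 0.14 with sex as a covariate. Limma-voom gave -0.025 for Lcn11, 0.0359 for Muc1 and -0.19 for Mup5, and the replicate block -0.0257, 0.0268 and -0.25 for the same genes. Sex as a covariate gave -0.0027 for Lcn11, -0.058 for Muc16, -0.0172 for Obp1a and 0.0649 for Obp2a. Leaving out 1 library gave -0.55 to 0.36 for Mup4, -0.47 to 0.84 for Mup5, -0.0093 to 0.19 for Bpifa1, -0.18 to 0.16 for Muc16, -0.34 to 0.15 for Obp2a, -0.47 to 0.34 for Lcn11, -0.35 to 0.42 for Obp1a, -0.29 to 0.52 for Obp1b, -0.25 to 0.21 for Muc1 and -0.25 to 0.54 for Scgb1b27. Depth limits the rare secretoglobins, where the wild-type libraries held at most 4 counts over 24 genes.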
